A study of Caenorhabditis elegans with 6 samples.

Results

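The genes described here encode the nuclear subunits and assembly factors of the mitochondrial respiratory chain and the ATP synthase in Caenorhabditis elegans. They were chosen by name, 46 genes of complex I, complex III with cytochrome c, complex IV and the ATP synthase, with complex II left out. Of these, 44 had at least 1 probe set annotated to that gene alone among the 17118 genes so annotated on the array, nuo-3 and ucr-11 are not analysed here, and 43 were bright enough to be tested. The 44 genes had 62 probe sets, and 16 genes had more than 1.

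The respiratory chain passes electrons from NADH and succinate through ubiquinone, complex III and cytochrome c to oxygen at complex IV, and pumps protons across the inner mitochondrial membrane. The ATP synthase lets the protons return and makes ATP. Most subunits are made in the cytosol from nuclear genes and imported, while a small core is encoded by mitochondrial DNA, so that both genomes contribute to complexes I, III and IV and to the ATP synthase. In worms, mutation or knockdown of several of these genes (gas-1, nuo-6, isp-1, cox-5B, atp-2) slows respiration, and loss of some of them switches on the mitochondrial unfolded protein response, which the transcription factor ATFS-1 drives. ZIP-3 is a bZIP protein that has been linked to repression of that response.

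Transcripts were measured in whole L4 larvae, the last larval stage, of zip-3(gk3164) mutants and of wild-type worms, with 3 Affymetrix arrays for each genotype. All worms of both genotypes were synchronized with bleach, grown in liquid and fed bacteria of the control RNAi culture. The labels call the arrays biological replicates and do not say whether the cultures were started apart. The gk3164 allele is present in every cell of the mutant, and one mutant strain was used.

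The values are linear MAS5 signals, and differences are log2 values of zip-3(gk3164) minus wild-type with the standard error of limma, the linear-model test used throughout. The arrays had medians of 123.9 to 139.1 on the signal scale. zip-3 itself read 385, 459 and 234 in the zip-3(gk3164) arrays, against 1204, 1113 and 939.6 in the wild-type arrays, a log2 difference of -1.64 ± 0.28 that did not pass (limma adjusted p = 0.0717) and passed without mutant array 3 (-1.36 ± 0.20, limma adjusted p = 0.00642). A second, dimmer zip-3 probe set read 64.4, 74.9 and 50.8 in the zip-3(gk3164) arrays, against 117, 84.5 and 71.9 in the wild-type arrays, with overlap (-0.51 ± 0.30; limma adjusted p = 0.393). Where the 2 probe sets lie relative to the deletion is not known from the labels. Mutant array 3 stood apart from the other mutant arrays: across the tested probe sets, which are not independent, r was 0.89 to 0.93 with those 2 arrays but 0.94 to 0.96 with wild-type ones. Mutant arrays 1 and 2 correlated at 0.96 with each other. Results are therefore given with and without mutant array 3. In whole worms, fewer cells of a type and less RNA in each cell cannot be told apart.

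Most respiratory chain and ATP synthase transcripts read nearly the same in zip-3(gk3164) and wild-type larvae. No gene among the 43 passed an adjusted p of 0.05, where 0.135% of 10369 genes tested passed with a higher level and 0.0193% with a lower one. At an unadjusted limma p under 0.05, 2 of 43 were higher (mai-1 and cox-15) and 2 lower (asb-1 and ucr-2.3), against 9.87% of all genes higher and 10.1% lower. The median log2 difference was 0.05 over the 43 genes and 0.03 over all genes tested, and 30 of the 43, or 69.8%, lay above 0, against 52.8% of all genes. The median of the 43 was 0.11 with quantile normalization and -0.0047 when each array was centred on its median, so the sign of so small a shift is not settled. Differences ran from -0.79 for ucr-2.3 to 0.84 for mai-1. The median size of a difference, whatever its sign, was 0.09 over the 43 genes and 0.30 over all genes.

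On all 6 arrays the measurements were tight enough to bound most differences. For 31 of the 43 genes, or 72.1%, the limma 95% interval lay within a 1.5-fold change in either direction, against 16.2% of all genes tested. It lay within a 2-fold change for 39 of 43, and the other 4 genes were mai-1, asb-1, nduf-2.2 and ucr-2.3. Without mutant array 3 the median difference of the 43 genes was 0.14, and these counts of intervals do not cover that setting. The median standard deviation within a genotype was 0.15 on the log2 scale over the 43 genes and 0.31 over all genes. The 43 genes were also brighter, with a median of the mean log2 signal of 12.45 against 8.66 over all genes, and the part of brightness in the smaller spread was not tested.

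**Figure D1:**
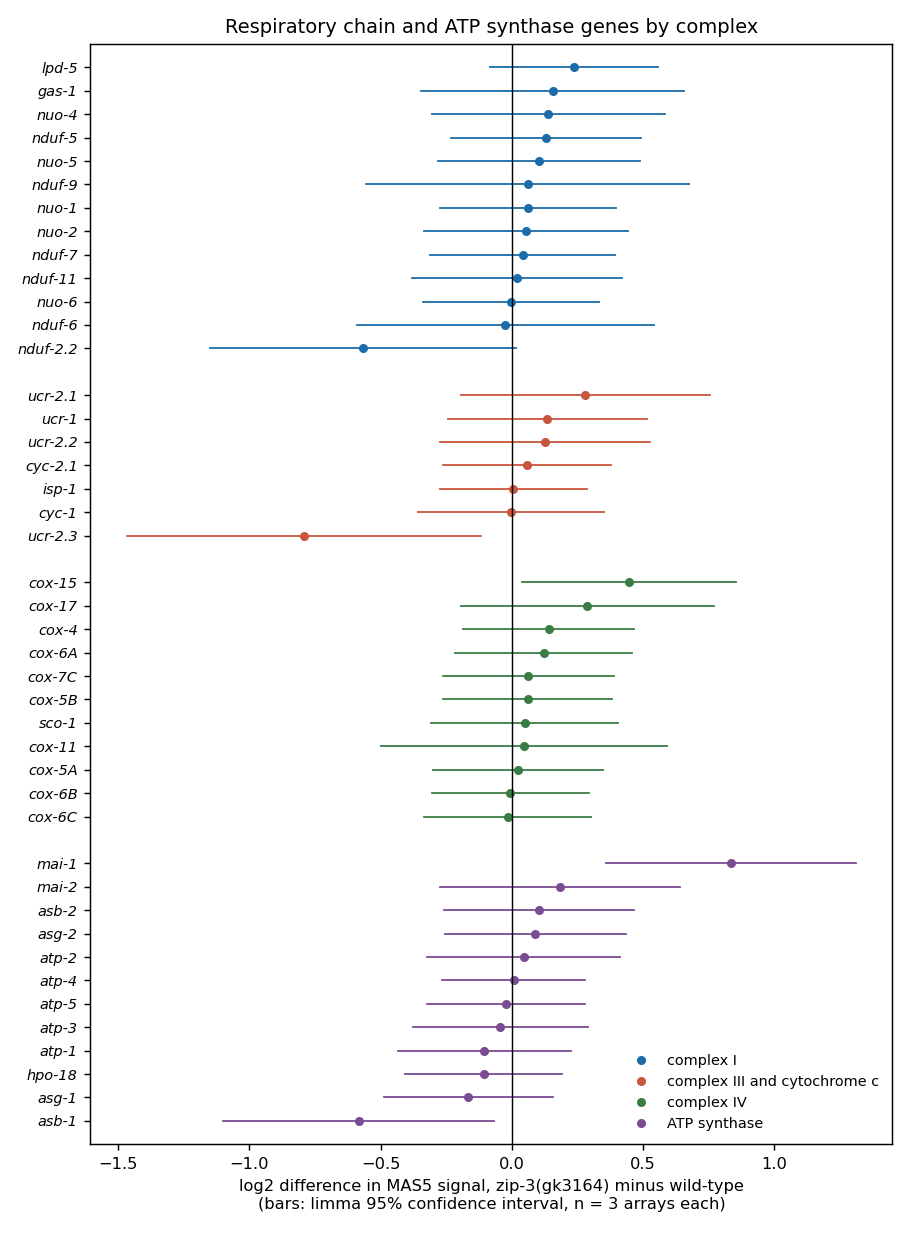
Log2 difference in MAS5 signal, zip-3(gk3164) minus wild-type, for the 43 tested genes, ordered by size within each complex; points are the limma estimates and bars their 95% confidence intervals (n = 3 arrays each). Most points lie within 0.30 of 0, while nduf-2.2, ucr-2.3 and asb-1 lie to the left and cox-15 and mai-1 to the right.

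Complex I, the NADH dehydrogenase, had 13 tested genes, of which 10 lay above 0 and 0 passed in either direction, with a median difference of 0.06. nuo-6, a small accessory subunit whose mutation lengthens life, read 3426, 3388 and 2956 in the zip-3(gk3164) arrays, against 3164, 3441 and 3166 in the wild-type arrays. The groups overlapped and the difference was -0.00 ± 0.14, with a 95% interval of -0.34 to 0.33. gas-1 encodes a subunit of complex I, and its brighter probe set read 4033, 4781 and 2796 in the zip-3(gk3164) arrays, against 3149, 3534 and 3502 in the wild-type arrays, with mutant array 2 highest and mutant array 3 lowest of the 6. In the dimmer gas-1 probe set mutant array 3 lay above the wild-type arrays instead, and the 2 probe sets gave 0.16 ± 0.21 and 0.25 ± 0.17.

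lpd-5, the worm counterpart of NDUFS4, an accessory subunit of the NADH-oxidizing arm, was the only complex I gene whose arrays did not overlap between genotypes. It read 6714, 6978 and 6080.0 in the zip-3(gk3164) arrays, against 5496, 5239 and 6059.6 in the wild-type arrays. The gap between the lowest mutant and the highest wild-type array was small, and the difference of 0.24 ± 0.14 did not pass (limma adjusted p = 0.389). Over all genes tested, 13.8% had mutant arrays entirely above the wild-type arrays and 9.34% entirely below, and among the 43 genes these counts were 3 (lpd-5, cox-15 and mai-1) and 1 (asb-1). The accessory subunit genes nduf-5 and nuo-4 differed by 0.13 ± 0.16 and 0.14 ± 0.19.

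Except for nduf-2.2, which is described with the paralogs, the remaining complex I genes (nuo-1, nuo-2, nuo-5, nduf-6, nduf-7, nduf-9 and nduf-11) lay between -0.02 and 0.10. Among them nuo-1 encodes the flavoprotein that takes electrons from NADH, nuo-5 the large iron-sulfur subunit and nduf-7 an iron-sulfur subunit next to the ubiquinone site. nuo-1 read 3784, 4310.3 and 3603 in the zip-3(gk3164) arrays, against 3612, 3939 and 3645 in the wild-type arrays. Mutant array 2 was the highest and mutant array 3 the lowest of the 6 for nuo-1, with both genotypes within a narrow band. The dimmer probe sets of nuo-4, nuo-5, nduf-7, nduf-9 and nduf-11 gave 0.16 ± 0.18, 0.32 ± 0.22, 0.23 ± 0.18, -0.00 ± 0.18 and 0.34 ± 0.30. Each of these overlapped between genotypes, and none passed.

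Complex III, which oxidizes ubiquinol and reduces cytochrome c, was represented with the carrier itself by 7 tested genes, 5 above 0 and 0 passing, with a median of 0.06. isp-1, the Rieske iron-sulfur protein, read 16494, 19368 and 17438 in the zip-3(gk3164) arrays, against 17198, 17716 and 18066 in the wild-type arrays. All 3 wild-type values lay inside the mutant range, and the 95% interval of the difference was -0.28 to 0.29. cyc-1, which encodes cytochrome c1, differed by -0.00 ± 0.15 in its brighter probe set and by 0.31 ± 0.19 in the dimmer one, and both genotypes overlapped in each.

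cyc-2.1, a cytochrome c gene, read 23585, 26640.4 and 21019 in the zip-3(gk3164) arrays, against 20999.9, 22590.4 and 24733 in the wild-type arrays, an overlap with a difference of 0.06 ± 0.14. ucr-1, which encodes the first core protein, differed by 0.14 ± 0.16 (limma adjusted p = 0.695). The 3 genes for the second core protein, ucr-2.1, ucr-2.2 and ucr-2.3, read differently from each other, and their values are given with the paralogs.

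Complex IV, cytochrome c oxidase, had 7 tested structural subunits and 4 tested assembly factors, 9 of 11 above 0 and 0 passing, with a median of 0.06. By their brightest probe sets the 7 subunits lay between -0.02 and 0.14, and the limma 95% interval of each was within a 1.5-fold change. cox-5B, long known as cco-1 and widely used as a knockdown that sets off mitochondrial stress, read 14847, 17727 and 14973 in the zip-3(gk3164) arrays, against 15416, 13756 and 16408 in the wild-type arrays, with a difference of 0.06 ± 0.14. cox-4 read 9668, 10931 and 9496 in the zip-3(gk3164) arrays, against 9633, 8088 and 9617 in the wild-type arrays, where mutant arrays 1 and 2 exceeded the wild-type arrays and mutant array 3 fell within their range. cox-6A and cox-7C differed by 0.12 ± 0.14 and 0.06 ± 0.14.

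The 2 probe sets of cox-5A disagreed. The brighter gave 0.02 ± 0.14, while the dimmer read 3244, 3354 and 2139.9 in the zip-3(gk3164) arrays, against 2061, 1584 and 2081 in the wild-type arrays, a separation of the genotypes with a difference of 0.59 ± 0.23 that did not pass (limma adjusted p = 0.219). The limma 95% interval of the dimmer probe set, 0.07 to 1.12, reached beyond a 1.5-fold change. The brighter probe set overlapped between genotypes. A dimmer probe set of atp-5, a stalk gene of the ATP synthase, was likewise without overlap at 0.15 ± 0.13, while the brightest gave -0.02 ± 0.13.

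Among the brightest probe sets, the assembly factors of complex IV included the largest differences of that complex. cox-15 encodes heme A synthase, which makes the heme of the oxidase. It read 661, 688 and 642 in the zip-3(gk3164) arrays, against 527, 503 and 435 in the wild-type arrays. Each mutant array lay above each wild-type array by a clear margin, mutant array 3 included, and the means were 663 ± 23.3 in zip-3(gk3164) and 488 ± 47.3 in wild-type (SD, n = 3 each). The difference was 0.45 ± 0.17, with a 95% interval of 0.04 to 0.85, and it did not pass over all genes (limma adjusted p = 0.227). cox-17, a copper chaperone, read 959, 1205 and 871 in the zip-3(gk3164) arrays, against 702, 821 and 960.0 in the wild-type arrays, with mutant arrays 1 and 3 inside the wild-type range and mutant array 2 above it (0.29 ± 0.21). The copper delivery genes cox-11 and sco-1 both stood at 0.05, with standard errors of 0.23 and 0.15. cox-10, which makes heme O, the precursor of heme A, was below the signal limit of 68.7 and was not tested. It read 44.9, 32.5 and 48.3 in the zip-3(gk3164) arrays, against 48.6, 36 and 22 in the wild-type arrays, and the groups overlapped.

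The ATP synthase had 12 genes tested of 12, with 6 above 0 and 6 below, 0 passing and a median of -0.01. Its sign depended on the scaling: with quantile normalization the median was 0.07. Genes of the catalytic head lay close to 0. atp-2, the beta subunit, read 18928, 23479 and 16457 in the zip-3(gk3164) arrays, against 17812, 19939 and 18764 in the wild-type arrays, with the wild-type arrays inside the mutant range and a difference of 0.04 ± 0.16. The alpha subunit gene atp-1, the stalk genes atp-3, atp-4 and atp-5 and the epsilon subunit gene hpo-18 lay between -0.11 and 0.01. hpo-18 read 13239.6, 14304 and 11768 in the zip-3(gk3164) arrays, against 14215, 13584 and 14435 in the wild-type arrays, a difference of -0.11 ± 0.13 with overlap.

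mai-1 had the largest difference of the 43 genes. mai-1 and mai-2 encode worm relatives of IF1, the small protein that inhibits ATP hydrolysis by the synthase. mai-1 read 363, 361 and 322 in the zip-3(gk3164) arrays, against 228, 182 and 179 in the wild-type arrays. The mutant arrays were close to each other, and the lowest of them was well above the highest wild-type array. Means were 349 ± 23.1 in zip-3(gk3164) and 196 ± 27.5 in wild-type (SD, n = 3 each), a log2 difference of 0.84 ± 0.20 or 1.79-fold, with a 95% interval of 0.36 to 1.31. It did not pass over all genes (limma adjusted p = 0.145) and passed without mutant array 3 (0.89 ± 0.22, limma adjusted p = 0.0345). Over 17 alternatives the difference stayed between 0.75 and 0.95, with limma adjusted p-values from 0.00442 to 0.446. The dimmer mai-1 probe set read 164, 142 and 88.6 in the zip-3(gk3164) arrays, against 93.9, 87.6 and 64.5 in the wild-type arrays, with mutant array 3 inside the wild-type range (0.65 ± 0.32). mai-2 read 9173, 14540.2 and 9709 in the zip-3(gk3164) arrays, against 8948, 9527 and 10379 in the wild-type arrays in its brighter probe set, where mutant array 2 was far above the other 5 arrays and the rest overlapped (0.18 ± 0.20; -0.03 ± 0.17 in the dimmer probe set).

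The complexes were next compared array by array, each gene being set against its own wild-type mean. Complex I medians were 0.21, 0.21 and -0.15 in zip-3(gk3164) arrays 1, 2 and 3, against 0.01, -0.03 and -0.02 in wild-type arrays 1, 2 and 3. Complex III with cytochrome c stood at 0.05, 0.23 and -0.11 in zip-3(gk3164) arrays 1, 2 and 3, against -0.04, -0.01 and 0.05 in wild-type arrays 1, 2 and 3. Complex IV stood at 0.09, 0.23 and -0.03 in zip-3(gk3164) arrays 1, 2 and 3, against 0.02, -0.04 and 0.08 in wild-type arrays 1, 2 and 3. The ATP synthase, whose mutant medians were the closest together, stood at -0.04, 0.05 and -0.13 in zip-3(gk3164) arrays 1, 2 and 3, against -0.00, -0.02 and 0.03 in wild-type arrays 1, 2 and 3. In each of the 4 complexes mutant array 2 had the highest or, for complex I, nearly the highest median of the mutant arrays and mutant array 3 the lowest. Mutant array 3 was below the wild-type medians in complex I, complex III with cytochrome c and the ATP synthase, and between them in complex IV.

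Gene by gene the same split appeared. Of the 43 genes, 23 were highest in mutant array 2 and 0 in mutant array 3, against 23.1% and 16.5% of all genes tested. Mutant array 3 was the lowest of the 6 arrays for 19 of 43, or 44.2%, against 15.1% of all genes. In complex I it was lowest for 9 of 13 genes, in the ATP synthase for 6 of 12, in complex III with cytochrome c for 2 of 7 and in complex IV for 2 of 11. Without mutant array 3, the mutant arrays lay entirely above the wild-type arrays for 18 of 43 genes, against 26.7% of all genes, and for 9 of 13 in complex I, 3 of 7 in complex III with cytochrome c, 4 of 11 in complex IV and 2 of 12 in the ATP synthase. They lay entirely below for 4 of 43, against 24.5% of all genes. The medians without mutant array 3 were 0.21 for complex I, 0.14 for complex III with cytochrome c, 0.12 for complex IV and 0.03 for the ATP synthase, and 0.05 over all genes. Without mutant array 2 they were -0.02 for complex I, -0.02 for complex III with cytochrome c, 0.03 for complex IV and -0.07 for the ATP synthase. The complex I median therefore rested on which mutant arrays were kept, and median centring brought it to 0.0016, with -0.0015 for complex III with cytochrome c, 0.0014 for complex IV and -0.07 for the ATP synthase.

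**Figure D2:**
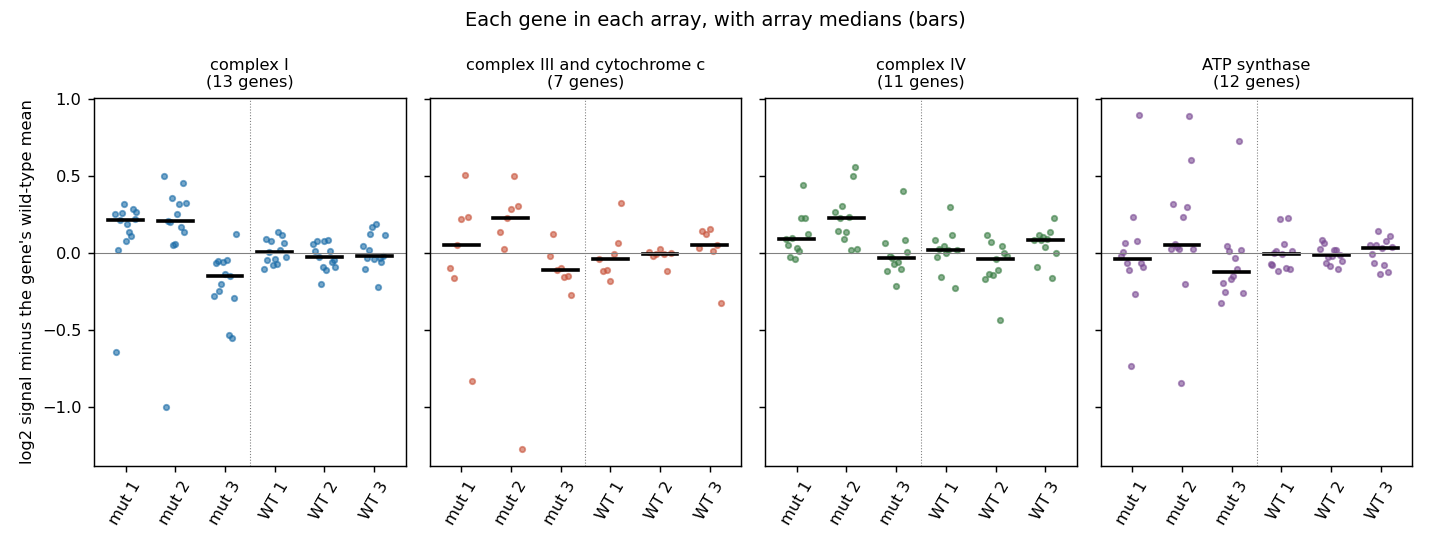
Each tested gene in each array, as its log2 MAS5 signal minus its mean over the wild-type arrays, by complex; mut is zip-3(gk3164), WT is wild-type, points are genes and black bars the array medians. Complex I medians are 0.21 and 0.21 in mutant arrays 1 and 2 and -0.15 in mutant array 3, and the low points in mutant arrays 1 and 2 are nduf-2.2, ucr-2.3 and asb-1.

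Several subunits are encoded by more than 1 gene, and some paralogs differed in how they read across the mutant arrays. asb-1 and asb-2 encode the b subunit of the ATP synthase stalk, and asb-1 is known as the form made in the germline. asb-1 read 1484, 1375 and 2191 in the zip-3(gk3164) arrays, against 2874, 2328 and 2247 in the wild-type arrays. All mutant arrays were below all wild-type arrays, but mutant array 3 lay only just below the lowest of them. The means were 1683 ± 443 in zip-3(gk3164) and 2483 ± 341 in wild-type (SD, n = 3 each), and the difference of -0.58 ± 0.22 did not pass (limma adjusted p = 0.218). asb-2 read 6630.4, 6614 and 5071 in the zip-3(gk3164) arrays, against 5603, 5548 and 5754 in the wild-type arrays, with mutant arrays 1 and 2 above and mutant array 3 below every wild-type array (0.10 ± 0.16).

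nduf-2.2 is the paralog of gas-1. It read 976, 764 and 1458 in the zip-3(gk3164) arrays, against 1620.4, 1537 and 1418 in the wild-type arrays, so mutant arrays 1 and 2 were low and mutant array 3 lay between the wild-type values. The difference was -0.57 ± 0.25 (limma adjusted p = 0.269). In complex III, ucr-2.3 read 1009.7, 742 and 1481 in the zip-3(gk3164) arrays, against 2240.5, 1793 and 1432 in the wild-type arrays, again with mutant arrays 1 and 2 low and mutant array 3 just above the lowest wild-type array. Its difference of -0.79 ± 0.29 was the most negative of the 43 genes and did not pass (limma adjusted p = 0.208). ucr-2.1 lay on the other side of 0, at 6184, 6164 and 3919 in the zip-3(gk3164) arrays, against 4352, 4352 and 4398 in the wild-type arrays, with a difference of 0.28 ± 0.20. The wild-type arrays of ucr-2.1 were nearly identical, and mutant array 3 lay below them while the other mutant arrays lay above. ucr-2.2 stood at 0.13 ± 0.17.

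Without mutant array 3, 5 of the 43 genes passed, where 5.97% of all genes passed as higher and 10.9% as lower. asb-1 was lower, with a log2 difference of -0.79 ± 0.18 (limma adjusted p = 0.0266). nduf-2.2 was lower at -0.82 ± 0.18 (limma adjusted p = 0.0273), and so was ucr-2.3 at -1.05 ± 0.24 (limma adjusted p = 0.0303). ucr-2.1 was higher at 0.50 ± 0.13 (limma adjusted p = 0.046), and mai-1 was the other higher gene. Without any other single array, 0 of the 43 passed, and 1 to 3 had an unadjusted limma p under 0.05. When limma weighted each array by its agreement with the fit, 4 of the 43 passed as higher (mai-1, ucr-2.1, lpd-5 and cox-15) and 3 as lower (asb-1, nduf-2.2 and ucr-2.3), against 17.6% and 18% of all genes.

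The ratio of 2 paralogs within an array does not depend on the scaling of that array, and each ratio is given relative to its wild-type mean, since levels of different probe sets cannot be compared. The log2 ratio of asb-1 to asb-2, minus its wild-type mean, was -0.97, -1.08 and -0.02 in the zip-3(gk3164) arrays, against 0.23, -0.06 and -0.17 in the wild-type arrays, a difference of -0.69 ± 0.36 (SE, n = 3 each). For nduf-2.2 to gas-1 it was -0.89, -1.49 and 0.22 in the zip-3(gk3164) arrays, against 0.20, -0.05 and -0.15 in the wild-type arrays, a difference of -0.72 ± 0.51. In both, mutant arrays 1 and 2 were below every wild-type array and mutant array 3 was above or among them. The ratio of ucr-2.1 to ucr-2.3 was 1.33, 1.77 and 0.12 in the zip-3(gk3164) arrays, against -0.33, -0.01 and 0.33 in the wild-type arrays, with the opposite sign because the low paralog is the divisor (1.07 ± 0.53).

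Differences of the other ratios were 0.92 ± 0.47 for ucr-2.2 to ucr-2.3, 0.15 ± 0.10 for ucr-2.1 to ucr-2.2, 0.65 ± 0.26 for mai-1 to mai-2 and -0.25 ± 0.19 for asg-1 to asg-2, the genes of the g subunit. The genotypes overlapped in all 7 ratios. Exact two-sided permutation tests gave p = 0.20 to 0.40 over the 7 ratios, and 0.35 to 0.40 after Benjamini-Hochberg adjustment, where 3 arrays against 3 cannot give less than 0.10. asg-1 read 4582, 4793 and 5382 in the zip-3(gk3164) arrays, against 5725, 5578 and 5217 in the wild-type arrays (-0.17 ± 0.14), with mutant arrays 1 and 2 below every wild-type array, and asg-2 read 10033, 11690.0 and 8878 in the zip-3(gk3164) arrays, against 8892, 9655 and 10067 in the wild-type arrays (0.09 ± 0.15).

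**Figure D3:**
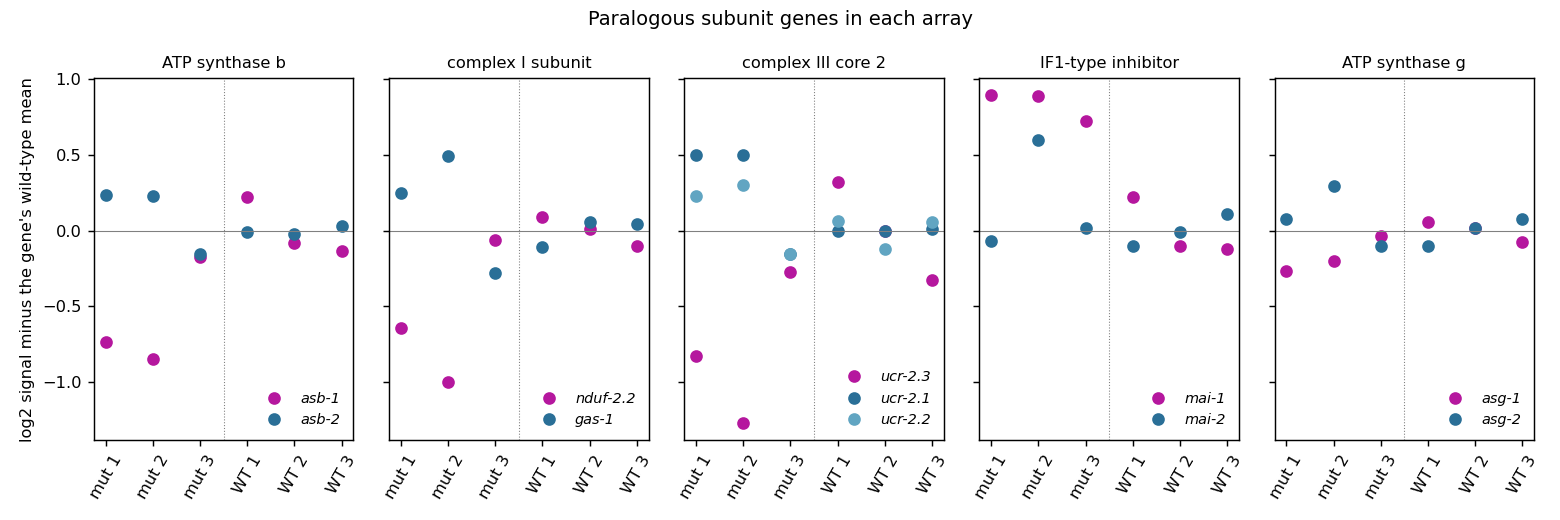
Paralogous genes in each array, as log2 MAS5 signal minus the gene's wild-type mean; mut is zip-3(gk3164), WT is wild-type and each point is 1 array. asb-1, nduf-2.2 and ucr-2.3 are low in mutant arrays 1 and 2 and close to wild-type in mutant array 3, while mai-1 is high in all 3 mutant arrays.

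Some paralogs outside the 43 genes were also low. sdha-2, a second gene for the flavoprotein of complex II, read 963, 825 and 1139 in the zip-3(gk3164) arrays, against 1593, 1998 and 1592 in the wild-type arrays, with no overlap between genotypes (-0.83 ± 0.19; limma adjusted p = 0.138). Its partner sdha-1 read 1859, 2230.2 and 1937 in the zip-3(gk3164) arrays, against 1303, 1208 and 1592 in the wild-type arrays, also with no overlap but higher (0.56 ± 0.18; limma adjusted p = 0.182). The dimmer sdha-1 probe set overlapped between genotypes, at 0.33 ± 0.28 (limma adjusted p = 0.572). Of 5 complex II genes, 1 lay entirely above and 1 entirely below the wild-type arrays, against 13.8% and 9.34% of all genes. ant-1.3, which encodes an adenine nucleotide translocase of the inner membrane, read 704, 382 and 1375 in the zip-3(gk3164) arrays, against 1690.0, 1233 and 1633 in the wild-type arrays, low in mutant arrays 1 and 2 only (-1.07 ± 0.43).

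ant-1.4 differed by -0.91 ± 0.40 and the second cytochrome c gene, cyc-2.2, by -1.26 ± 0.55, while ant-1.1 stood at -0.03 ± 0.11. cyc-2.2 read 671, 384 and 2029 in the zip-3(gk3164) arrays, against 2298, 1626 and 1911 in the wild-type arrays, a spread of several fold among the mutant arrays alone. None of sdha-1, sdha-2, ant-1.3, ant-1.4 and cyc-2.2 passed on all 6 arrays. Without mutant array 3, sdha-2, ant-1.3, ant-1.4 and cyc-2.2 passed as lower, at -0.95 ± 0.19, -1.54 ± 0.29, -1.36 ± 0.24 and -1.92 ± 0.28. Of all genes, 10.9% then passed as lower.

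Germline and sperm transcripts read low in the same arrays. The summed signal of 10 germline markers, all tested and none at 0, was 11391, 8302 and 20358 in the zip-3(gk3164) arrays, against 23102, 24030.2 and 18023 in the wild-type arrays. That of 7 sperm markers, also all tested and none at 0, was 7320.3, 4935 and 18359 in the zip-3(gk3164) arrays, against 30193, 27059 and 22559 in the wild-type arrays. In both lists mutant array 2 was the lowest array and mutant array 1 the next. That order was also seen for asb-1, nduf-2.2, ucr-2.3, sdha-2, ant-1.3, ant-1.4 and cyc-2.2, which were chosen after their values were seen. Over all genes tested, 27.6% were lowest in mutant array 2, and 24.5% had mutant arrays 1 and 2 below every wild-type array. The 10 germline markers had a median difference of -1.01 and the 7 sperm markers one of -1.61, with 0 of either passing. Without mutant array 3, 8 of the 10 germline and 6 of the 7 sperm markers passed as lower, against 10.9% of all genes. The part of germline and sperm transcripts in the values of these paralogs was not tested.

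Other tissues varied as well. Summed signals of 5 muscle markers were 32801, 39072 and 46746 in the zip-3(gk3164) arrays, against 29613, 30446 and 42181 in the wild-type arrays. Muscle markers were highest in mutant array 3 and wild-type array 3. The 3 tested pharynx markers summed to 849, 1316 and 2319.7 in the zip-3(gk3164) arrays, against 1138, 1641 and 2804 in the wild-type arrays. The 5 neuronal markers summed to 4964, 4793 and 4618 in the zip-3(gk3164) arrays, against 3910.3, 4137 and 4421 in the wild-type arrays. The 5 epidermal markers, all collagens, summed to 68883, 73902 and 78291 in the zip-3(gk3164) arrays, against 102847, 101396 and 97491 in the wild-type arrays, with no overlap. That sum was carried by dpy-13, sqt-3 and col-12, at -0.56 ± 0.12, -0.36 ± 0.13 and -0.69 ± 0.15, while dpy-7 and rol-6 lay above 0 without overlap, at 1.87 ± 0.32 and 1.44 ± 0.44. The 2 probe sets of sqt-3 disagreed, and the dimmer one lay above 0 with overlap, at 0.71 ± 0.34. None of the 5 epidermal markers passed on all 6 arrays. Without mutant array 3, dpy-7 and rol-6 passed as higher, at 2.07 ± 0.32 and 1.69 ± 0.46. In that setting dpy-13 and col-12 passed as lower, at -0.59 ± 0.13 and -0.82 ± 0.13, and sqt-3 did not pass. Of all genes, 5.97% then passed as higher and 10.9% as lower.

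The 5 intestinal markers, 3 of them vitellogenins, summed to 47689, 28888 and 73768 in the zip-3(gk3164) arrays, against 83655, 71897 and 69267 in the wild-type arrays. The vitellogenins vit-2, vit-5 and vit-6 made up most of that sum, at -0.79 ± 0.46, -0.73 ± 0.34 and -0.68 ± 0.28, while the other intestinal genes lay above 0. These were the esterase gene ges-1, at 0.31 ± 0.26, and elt-2, a transcription factor gene, at 0.21 ± 0.36. Without mutant array 3, ges-1 passed as higher (0.59 ± 0.16, limma adjusted p = 0.0493). The part of these tissue transcripts in the differences of the 43 genes was not tested.

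**Figure D4:**
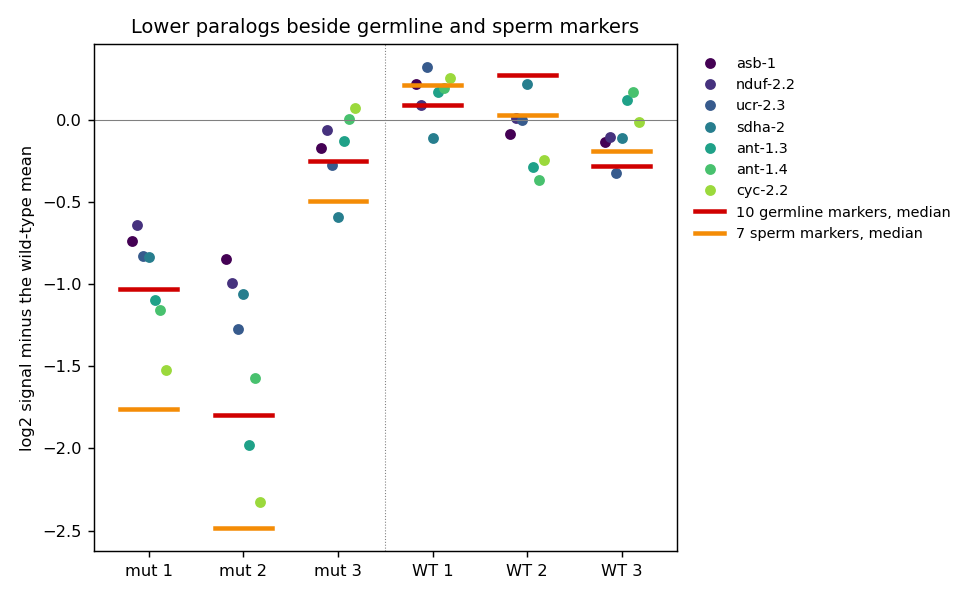
Paralogs that read lower in zip-3(gk3164), chosen after their values were seen, beside the medians of 10 germline and 7 sperm markers, all as log2 MAS5 signal minus the wild-type mean in each array; mut is zip-3(gk3164) and WT is wild-type. Points are genes and bars the marker medians, all lowest in mutant array 2, next lowest in mutant array 1 and nearer 0 in mutant array 3.

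None of the genes of the wider pathway passed on all 6 arrays with equal weight. Of 5 complex II genes 4 lay above 0, with a median of 0.13, and mev-1, its cytochrome b subunit, stood at 0.20 ± 0.17. Ubiquinone synthesis genes numbered 7 tested of 8, and all 7 were above 0 with a median of 0.24, none passing. coq-2, which attaches the isoprenoid tail, read 737, 661 and 590.1 in the zip-3(gk3164) arrays, against 560.1, 477 and 473 in the wild-type arrays, without overlap (0.40 ± 0.19; limma adjusted p = 0.293). coq-8, a kinase-like factor of the pathway, was also without overlap at 0.24 ± 0.15, and clk-1, the hydroxylase of a late step, was at 0.29 ± 0.20 with overlap. coq-2 and coq-8 were the 2 of 7 without overlap, against 13.8% of all genes.

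Among 6 tested assembly factors outside the 43 genes, 5 were above 0, against 52.8% of all genes, and the median was 0.18. sft-1, a relative of SURF1 that acts in complex IV assembly, read 289.9, 255 and 238 in the zip-3(gk3164) arrays, against 208, 171 and 191 in the wild-type arrays, without overlap (0.46 ± 0.21; limma adjusted p = 0.277). nuaf-1 and nuaf-3, complex I assembly factors, stood at 0.19 ± 0.18, without overlap, and 0.19 ± 0.18, with overlap. sft-1 and nuaf-1 were the 2 of 6 without overlap, against 13.8% of all genes. Without mutant array 3 the median of the 6 was 0.26, against 0.05 over all genes, and none of them passed. A further 28 genes linked to the complexes, listed by sequence name and now mostly carrying names of complex I subunits in the gene table, had a median of 0.02, with 17 above 0 and 11 below. Besides cyc-2.2, the largest moderated statistics of that list were those of R07E4.3 at 0.28 ± 0.19 and T27E9.2 at 0.19 ± 0.13. The 12 genes of mitochondrial DNA are not analysed here. Among genes of the mitochondrial stress response, hsp-6 encodes the mitochondrial HSP70. Its brighter probe set read 5852, 5049 and 4896 in the zip-3(gk3164) arrays, against 3998, 3512 and 4702 in the wild-type arrays, without overlap. The difference was 0.38 ± 0.16, with a 95% interval of -0.01 to 0.76, and 13.8% of all genes were likewise higher without overlap. In the dimmer hsp-6 probe set the genotypes overlapped, with mutant array 3 inside the wild-type range (0.31 ± 0.19). The chaperonin gene hsp-60 stood at -0.02 ± 0.18 and atfs-1 at 0.21 ± 0.21. With array weights, sdha-1, mev-1, coq-2, clk-1, sft-1, R07E4.3 and hsp-6 passed as higher, where 17.6% of all genes did. In that setting coq-8, nuaf-1, nuaf-3, T27E9.2, hsp-60 and atfs-1 did not pass.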

How the data were processed

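RNA of 6 whole-worm samples was hybridized to 1-colour Affymetrix arrays, 3 for zip-3(gk3164) and 3 for wild-type. The authors deposited 1 linear intensity for each probe set, the MAS5 signal. The submitters' processing notes name MAS5 and Affymetrix Expression Console, with versions not given in the sources used here. All 6 columns shared a scale: their means, trimmed by 2% at each end, were 500.2. Low MAS5 signals scatter widely once put on a log scale. No sequences are shown.

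Signals were transformed to log2 with no constant added. Of 22548 probe sets that were not controls, 13529 reached the 40th percentile of mean log2 signal (68.7) and were tested with limma 3.58.1 in R 4.3.3, genotype as the only term, empirical Bayes with an intensity trend, two-sided, Benjamini-Hochberg adjustment over 13529 probe sets and a threshold of 0.05. Gene names came from the platform annotation, only where it gave 1 gene, and all 44 gene identifiers were found in the gene table of assembly WBcel235. A gene was represented by its brightest probe set. Of the 62 probe sets, 34 carry suffixes for sequence shared between transcripts, those of asb-1, lpd-5 and cox-15 among them. The number of arrays limits the precision, and if the cultures were not separate the p-values measure technical spread only. Deviations from the genotype means correlated at r = 0.02, 0.05 and -0.16 for same-numbered arrays. With 3 arrays for each genotype and mutant array 3 apart, these values cannot show whether same-numbered arrays were paired. Muscle and pharynx marker sums rose from array 1 to array 3 in both genotypes.

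Genes given with their own values were zip-3, the 5 of each complex with the largest moderated statistic, the paralogs, 5 genes with known mutants or knockdowns, and 3 of each further list. Other members, and the dimmer probe sets given, were added after their values were seen. The genes, lists and tests were chosen with earlier results of these data known. The fits were tested on simulated arrays with the spread of all tested probe sets. Of true log2 changes of 1, 10 of 50 were called, of 2, 36 of 50, of 3, 49 of 50, and of 4, 47 of 50. Of 13329 unchanged probe sets, 7 were called. No simulated array was set apart as mutant array 3 was, and the 43 genes spread less than all genes. These counts therefore need not hold for the 43 genes. Python 3.11.15 and scipy 1.17.1 were used for permutation tests.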

Additional observations from a re-analysis of the deposited data

How the results depend on the processing

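The 17 alternatives covered normalization, the signal filter, an added constant, the choice of probe set, array weights, the replicate block and leaving out each array. None of the 45 named genes passed on all 6 arrays with equal weight. Of these alternatives, array weights (19 genes) and leaving out mutant array 3 (10 genes) gave calls among them. Over all genes, array weights called 17.6% as higher and 18% as lower. Leaving out mutant array 3 called 5.97% of all genes as higher and 10.9% as lower. Without single arrays 0 to 2 of the 43 genes passed as higher and 0 to 3 as lower, the upper values both without mutant array 3. With limma's array weights 4 passed as higher and 3 as lower. The median of the 43 genes was -0.02 to 0.14 without single arrays. Complex medians without single arrays were -0.02 to 0.21 for complex I, -0.02 to 0.14 for complex III with cytochrome c, 0.03 to 0.12 for complex IV and -0.07 to 0.04 for the ATP synthase. The ATP synthase median was 0.070 with quantile normalization and 0.071 without probe sets of shared sequence (8 genes). With the replicate number as a block, 0 of 43 passed in either direction, with 1 higher and 1 lower at an unadjusted limma p under 0.05. With the block, as without it, none of the 45 named genes passed. Without single arrays the asb-1 to asb-2 ratio differed by -1.02 to -0.49, nduf-2.2 to gas-1 by -1.19 to -0.34, and ucr-2.1 to ucr-2.3 by 0.72 to 1.55. These ranges were 0.59 to 1.31 for ucr-2.2 to ucr-2.3, 0.10 to 0.23 for ucr-2.1 to ucr-2.2, 0.50 to 0.83 for mai-1 to mai-2 and -0.42 to -0.13 for asg-1 to asg-2. Signs turned for 11 genes. With array weights these were hsp-60 (0.16), nuo-6 (0.055) and isp-1 (-0.073). Median centring gave -0.053 for isp-1, -0.014 for atp-2 and -0.0015 for cyc-2.1, averaged probe sets -0.0074 for isp-1, quantile normalization 0.11 for ant-1.1, and leaving out shared-sequence probe sets -0.026 for mai-2. Without single arrays gas-1 spanned -0.014 to 0.38, isp-1 -0.058 to 0.058, cox-5B -0.023 to 0.12, atp-2 -0.093 to 0.16 and asg-2 -0.013 to 0.19. mai-2 spanned -0.025 to 0.31, cyc-2.1 -0.029 to 0.14, cox-7C -0.024 to 0.12, hsp-60 -0.14 to 0.081 and nuo-6 -0.041 to 0.066. The cause was not tested.

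With 3 arrays for each genotype, most of the 43 genes were bounded within a 1.5-fold change and none passed with equal weight. Those bounds include mutant array 3, which stood apart from the other mutant arrays, and were not counted without it. Low MAS5 signals are noisy, which limits cox-10 and the dimmer mai-1 probe set. Probe sets of shared sequence can mix the signal of related transcripts.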
